A study of Homo sapiens with 4 samples.

Results

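The zinc finger genes of chromosome 19 were followed in A673 cells, an established line from a human Ewing sarcoma, kept for 24 h with 1 µM CBL0137 or with the solvent DMSO. The curaxin CBL0137 is a small molecule that binds DNA and traps the histone chaperone FACT on chromatin. Each condition had 2 RNA-seq libraries of the same line, and the labels name no genetic change in either condition. The members are the protein-coding genes on chromosome 19 of GRCh37 whose symbol is ZNF followed by digits and at most 1 capital letter. They number 246 of 60617 genes in the deposited table, and all 246 of the annotation had a row. A count filter, a minimum of 10 reads adjusted for depth, was passed by 224 of them, and the other 22 had at most 15 reads over the 4 libraries together.

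C2H2 zinc finger proteins read DNA with strings of fingers, each a short fold in which a pair of cysteines and a pair of histidines hold a zinc ion. Most of those on chromosome 19 also carry a KRAB domain, which recruits TRIM28, and TRIM28 in turn brings the H3K9 methyltransferase SETDB1 and HP1 proteins, so that the bound DNA is packed into silent chromatin. Many of these proteins bind transposable elements. The genes arose by repeated local duplication, stand in dense clusters and are themselves covered by H3K9 trimethylation near their ends, where the member ZNF274 is known to bind.

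The near-identity of neighbouring copies bears on the values here, because reads from a stretch that 2 genes share cannot be assigned to either. ZNF324 and ZNF324B are shown as an example, since ZNF324 had the smallest adjusted p among the members and its copy is the neighbouring member. Each encodes 9 fingers, and the coding bases were compared finger by finger over 69 bases from the first cysteine codon. Fingers 1, 3, 4 and 5 were identical in both genes. Finger 1 of ZNF324 lies at chr19:58982634-58982702 and that of ZNF324B at chr19:58967086-58967154, both on the plus strand of GRCh37. Finger 9, at chr19:58983306-58983374 in ZNF324 and chr19:58967758-58967826 in ZNF324B, differed at 7 of 69 bases, the most of any finger. Capitals mark the bases that differ.
ZNF324 finger 1: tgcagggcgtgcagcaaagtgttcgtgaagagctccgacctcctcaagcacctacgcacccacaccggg
ZNF324B finger 1: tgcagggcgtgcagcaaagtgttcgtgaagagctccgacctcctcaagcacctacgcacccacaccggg
ZNF324 finger 9: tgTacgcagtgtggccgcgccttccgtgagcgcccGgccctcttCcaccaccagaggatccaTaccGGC
ZNF324B finger 9: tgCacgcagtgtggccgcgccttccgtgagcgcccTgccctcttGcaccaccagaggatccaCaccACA

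Over all members, a median of 3.23% of the 50-base windows of the canonical transcript occurred in another annotated gene, with a range of 0% to 95.4%. For ZNF324 the share was 37.6% and for ZNF324B 17.4%. Reads that mapped to more than 1 place made up 6.43% and 7.78% of the summed counts and summary rows in CBL0137 replicates 1 and 2, and 6.79% and 7.17% in DMSO replicates 1 and 2. HTSeq lists such reads apart from the gene counts.

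Counts over genes were 20483714 and 22817617 in CBL0137 replicates 1 and 2, and 23373554 and 23031963 in DMSO replicates 1 and 2. All 10 Ewing sarcoma markers had reads. Their summed level was 5408 and 5384 CPM (counts scaled to the library) in CBL0137 against 5621 and 5641 CPM in DMSO. Most of that sum was CAV1 and CD99, and single markers differed in either direction. LOXHD1 had 42.5 and 44.9 CPM in CBL0137 against 76.4 and 77.7 CPM in DMSO. KDSR had 411 and 387 CPM in CBL0137 against 297 and 328 CPM in DMSO, and GLI1 15.4 and 17.1 CPM against 10.2 and 11.3 CPM. Summed markers of other cells reached 0.475 to 0.476 CPM in CBL0137 and 0.711 to 0.875 CPM in DMSO for 5 epithelial genes, and 1.43 to 1.6 CPM in CBL0137 and 1.24 to 1.53 CPM in DMSO for 5 blood genes. For 4 endothelial genes the sums were 6.24 and 7.77 CPM in CBL0137 against 6.0 and 5.82 CPM in DMSO, most of it KDR. In such bulk RNA, fewer cells of a type and less RNA per cell cannot be told apart.

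The zinc finger genes of chromosome 19 leaned upward under CBL0137. Of the 224 tested, 166 had a log2 fold change above 0 (74.1%), against 50.5% of all 17309 genes tested, and their median log2 fold change was 0.20, against 0.003 over all genes. A gene was called when edgeR's quasi-likelihood test gave a Benjamini-Hochberg adjusted p under 0.05 over all genes and the fold change exceeded 1.5. Nothing in the labels ties the libraries to separate cultures, and p-values therefore reflect only how far these libraries differ, possibly for technical reasons. By that rule 23 members rose and 2 fell, and 199 were not called. The 23 that rose are 10.3% of those tested, beside a background of 6.88% of all genes called higher. The 2 that fell are 0.893%, beside 2.73% called lower. These backgrounds are not matched for abundance, and the members' median was 9.23 CPM against 16.7 CPM over all tested genes. Within classes of abundance, the members' share called higher was larger below 1 CPM (15.4% against 8.94%) and at 1 to 5 CPM (25.9% against 15.7%). It was smaller at 5 to 20 CPM (5.74% against 9.27%) and at 20 CPM or more (0% against 1.70%). Without the fold limit, 56 members were higher (25%, background 17.5%) and 10 lower (4.46%, background 19%). Both CBL0137 libraries stood above both DMSO libraries in 122 members (background 33.5% of genes) and below them in 26 (background 33.4%). Without the count filter, 174 of 237 lay above 0, with 24 called higher and 2 lower. No test of the members as a list was made, so the difference between the members and all genes is a description. On the deposited FPKM (fragments scaled by gene length and library), analysed on the log2(FPKM + 1) scale, which understates the change of low genes, 133 of 180 members lay above 0 with a median of 0.13, but only ZNF470 was called. With limma on that scale 0 members were called lower. Of the 176 that also passed the count filter, 35 were higher and 9 lower at an unadjusted limma p under 0.05. Over all 14139 genes tested on that scale, 388 were called higher (2.74%) and 189 lower.

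Zinc finger genes of the same naming pattern on other chromosomes had a median and a share above 0 closer to those of all genes. Of 231 tested, 127 lay above 0 (55.0%), 8 were called higher and 3 lower, and the median was 0.04. Other protein-coding genes of chromosome 19 were split evenly, with 408 of 816 above 0, 68 called higher and 16 lower. Those lying between the zinc finger genes, inside the same stretches of the chromosome, had 49 of 92 above 0, a median of 0.05, and 18 higher and 17 lower at the adjusted p without the fold limit. None of these sets was tested against the members.

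**Figure D1:**
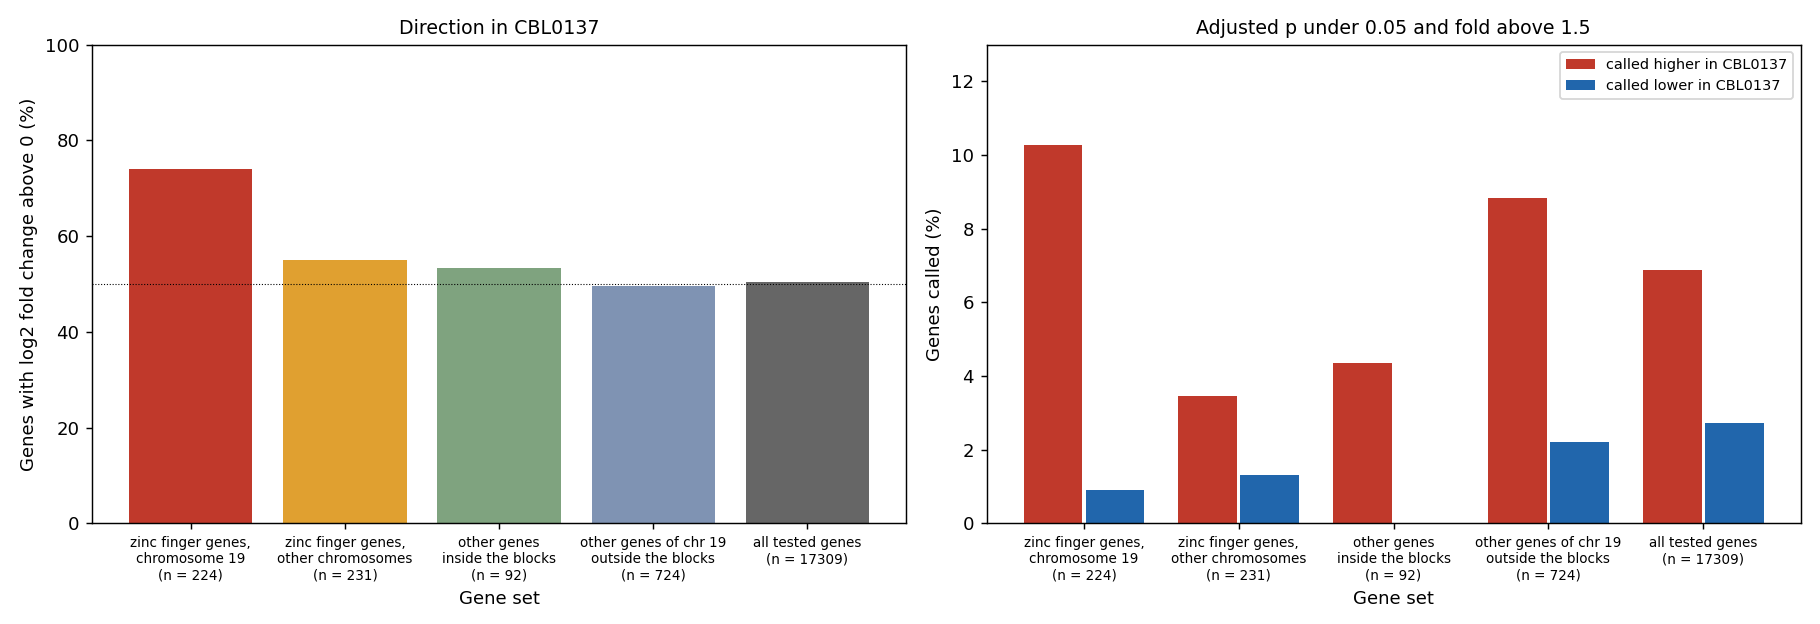
Left, the percentage of tested genes in each set with a log2 fold change (CBL0137 over DMSO) above 0, with a dotted line at 50%; right, the percentage called higher or lower. Zinc finger genes of chromosome 19 reach 74.1% above 0, while the other 4 sets lie between 49.6% and 55.0%. The share called higher is 10.3%, against 8.84% for other chromosome 19 genes outside the blocks. The sets are not matched for abundance.

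The largest rises were in members with few reads. ZNF90 had 0.476 and 0.561 CPM in CBL0137 against 0.131 and 0.0888 CPM in DMSO, from at most 13 reads in a library, and ZNF626 had 1.33 and 0.863 CPM in CBL0137 against 0.481 and 0.266 CPM in DMSO. The libraries of the conditions do not overlap in either gene, but few reads stand behind the difference. ZNF90 passed the count filter only through its CBL0137 libraries, so its lack of overlap was fixed by the filter. In ZNF626, DMSO replicate 2 also lay below the minimum, and its DMSO libraries alone would not have passed. The log2 fold changes were 2.18 ± 0.70 for ZNF90 and 1.53 ± 0.48 for ZNF626 (SE, n = 2 libraries per condition here and below), with edgeR adjusted p of 0.0161 and 0.0141. ZNF90 lost its call when any of the 4 libraries was left out (1.93 to 2.47), as it did under DESeq2, and ZNF626 lost it under DESeq2, without CBL0137 replicate 1 (1.19) and without DMSO replicate 2 (1.16).

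ZNF610, ZNF667, ZNF583 and ZNF415 more than doubled in CBL0137, against levels near 1 CPM in DMSO. ZNF610 had 2.62 and 2.72 CPM in CBL0137 against 0.963 and 1.07 CPM in DMSO. ZNF667 had 3.10 and 3.11 CPM in CBL0137 against 1.14 and 1.29 CPM in DMSO. In both genes the spread within a condition was small beside the gap between conditions, with log2 fold changes of 1.39 ± 0.29 (edgeR adjusted p = 4.8e-04) and 1.35 ± 0.27 (2.9e-04). ZNF583 had 2.81 and 3.41 CPM in CBL0137 against 1.66 and 0.933 CPM in DMSO, and ZNF415 had 2.19 and 2.76 CPM in CBL0137 against 0.832 and 1.24 CPM in DMSO. The DMSO libraries of these last genes lie further apart, and the log2 fold changes were 1.26 ± 0.29 and 1.26 ± 0.31 (edgeR adjusted p = 0.00113 and 0.00215).

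Some members at higher counts rose as well. ZNF324 had 19.4 and 18.2 CPM in CBL0137 against 10.6 and 10.7 CPM in DMSO, a log2 fold change of 0.81 ± 0.10 with an edgeR adjusted p of 6.5e-07. Its copy ZNF324B had 7.19 and 5.83 CPM in CBL0137 against 5.34 and 5.15 CPM in DMSO and was not called (0.31 ± 0.16, edgeR adjusted p = 0.148); the difference between the copies was not tested. ZNF780B had 26.1 and 21.8 CPM in CBL0137 against 15.5 and 15.9 CPM in DMSO (0.60 ± 0.10), close to the fold limit, and lost its call without CBL0137 replicate 1 (0.47) or DMSO replicate 1 (0.58) and on the FPKM (0.27). Its neighbour ZNF780A stood at 0.10 ± 0.09, and ZNF585B, the copy of the called ZNF585A (0.71 ± 0.16), at 0.51 ± 0.13. On the FPKM the calls of ZNF324 (0.50) and ZNF585A (0.045) ended too. The share of windows found in other genes was 3.22% for ZNF780B, 11.4% for ZNF780A, 18.3% for ZNF585A and 26.6% for ZNF585B. ZNF324, ZNF324B, ZNF780A, ZNF780B, ZNF585A and ZNF585B were picked for mention with their values already seen.

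ZNF154, whose promoter is known to be methylated in many tumour types, had 6.90 and 6.69 CPM in CBL0137 against 3.98 and 3.64 CPM in DMSO (0.83 ± 0.17, edgeR adjusted p = 3.3e-04). ZNF347 had 4.81 and 4.97 CPM in CBL0137 against 2.58 and 2.35 CPM in DMSO (0.98 ± 0.20). The further rises named by size were ZNF69 at 1.14 ± 0.31, ZNF497 at 0.97 ± 0.32, ZNF439 at 0.87 ± 0.19 and ZNF528 at 0.83 ± 0.26. Leaving out 1 library ended 3 of these calls: that of ZNF69 without DMSO replicate 2 (0.66, against 1.87 without DMSO replicate 1), that of ZNF497 without CBL0137 replicate 2 (0.91) or DMSO replicate 2 (0.67), and that of ZNF528 without DMSO replicate 1 (0.76). ZNF497 and ZNF528 also lost their calls under DESeq2, and ZNF497 (0.48) and ZNF439 (0.57) on the FPKM. Exons of ZNF497 overlap genes on the opposite strand over 36.3% of their bases and those of ZNF135 over 32.6%, and the strand setting of the counting is not known here, so reads of either strand cannot be told apart. The 11 other rises, ZNF324 and ZNF780B among them, lay between 0.60 and 0.81 on the log2 scale. At the same limits, 6 of the 25 calls held in each other normalization, filter, tool or set of libraries that tested the gene, those of ZNF610, ZNF667, ZNF583, ZNF415, ZNF347 and ZNF154. All 6 genes were too low to be tested on the FPKM, and ZNF347 and ZNF154 lie below a 2-fold change.

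Only 2 members fell. ZNF575 had 1.62 and 1.34 CPM in CBL0137 against 3.76 and 2.93 CPM in DMSO, a log2 fold change of -1.18 ± 0.26 with an edgeR adjusted p of 8.98e-04, and was not called on the FPKM (-0.71). ZNF784 had 4.48 and 4.58 CPM in CBL0137 against 7.75 and 5.95 CPM in DMSO (-0.60 ± 0.17), and its call ended under upper-quartile factors, library size alone, DESeq2, limma-voom, the FPKM and without DMSO replicate 1 (-0.40). Both have 6 fingers and no KRAB motif. ZNF414, with 3 fingers and no KRAB motif, had 9.29 and 8.94 CPM in CBL0137 against 13 and 13.1 CPM in DMSO, which passed the adjusted p but not the fold limit (-0.52 ± 0.12, edgeR adjusted p = 9.5e-04).

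**Figure D2:**
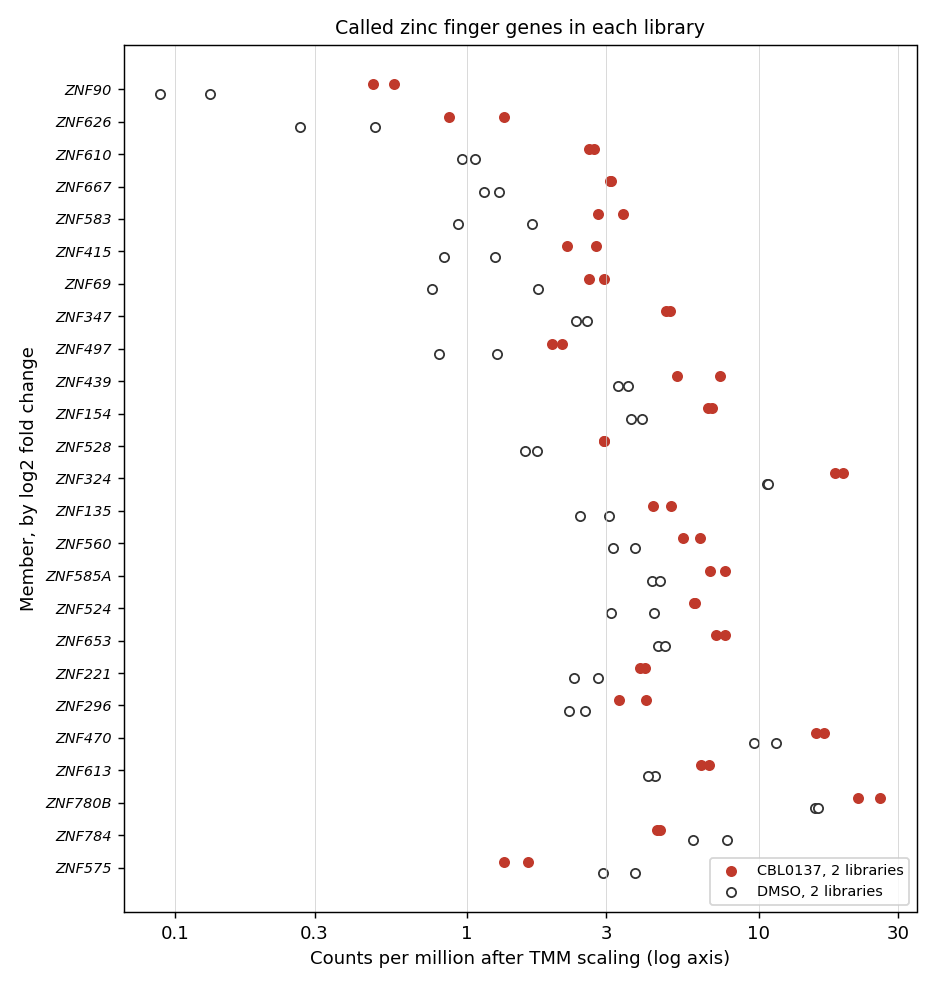
CPM after TMM scaling (log axis) of the 25 called members in each library, ordered by log2 fold change, with filled points for CBL0137 and open points for DMSO. No member shows overlap between the conditions, but the members shown were picked by their difference in these same libraries. For ZNF90 the count filter alone fixed the lack of overlap. Most lie under 10 CPM in every library. ZNF780B, at 26.1 and 21.8 CPM in CBL0137, is the highest.

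Among the members and among all genes, the median log2 fold change was larger in each lower class of abundance. At a mean of 20 CPM or more, neither edgeR nor DESeq2 nor limma-voom called any member (0 of 35), beside 1.70% of all genes of that class called higher and 2.32% lower by edgeR, while among the 35 edgeR gave 11 higher and 4 lower at an unadjusted p under 0.05. The members' median log2 fold change was 0.04, against -0.04 over all genes of that class. ZNF780B, called higher, has a mean just under 20 CPM, so the count of 0 depends on where the bound lies. At 5 to 20 CPM, 7 of 122 members rose and 1 fell (0.82%, beside 3.16% of all genes called lower). The median there was 0.19 against 0.03 over all genes. At 1 to 5 CPM, 14 of 54 rose and 1 fell (1.85%, beside 3.96% of all genes), with a median of 0.38 against 0.13. Below 1 CPM, 2 of 13 rose, beside 8.94% of the 2662 genes of that class, with a median of 0.62 against 0.22. Members called higher made up 25.9% at 1 to 5 CPM, where 15.7% of all genes were called higher, but 5.74% at 5 to 20 CPM, where 9.27% of all genes were. Members that passed the filter only through CBL0137 had to be higher there, and the median below 1 CPM was 1.16 without DMSO replicate 2. With classes by FPKM at the same bounds, the members' medians were 0.43, 0.19, 0.10 and -0.04, the last over 2 genes. On the log2(FPKM + 1) scale the order was lost, with medians of 0.13, 0.17, 0.15 and 0.06 from the lowest CPM class to the highest.

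**Figure D3:**
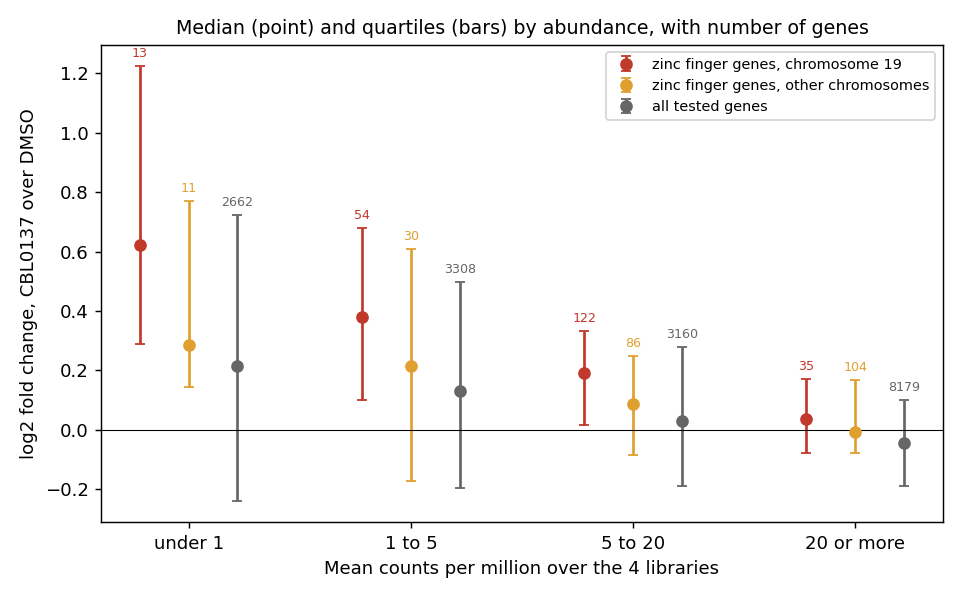
Median log2 fold change with quartile bars, by mean CPM over the 4 libraries, for zinc finger genes of chromosome 19, those of other chromosomes and all tested genes, with the number of genes above each bar. The members' medians are 0.62, 0.38, 0.19 and 0.04 from the lowest class to the highest, above the median of all genes in each class.

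Along the chromosome, the members were divided into 16 blocks wherever neighbouring starts lay more than 1 Mb apart. The p arm holds 83 members and the q arm 163. On the p arm 63 were tested, 6 rose (9.52%) and 0 fell by edgeR, with a median of 0.16. DESeq2 and limma-voom also called 0 lower there, and 20 were higher and 2 lower at an unadjusted p under 0.05 by edgeR. On the q arm 161 were tested, 17 rose (10.6%) and 2 fell (1.24%), with a median of 0.21. Over all genes tested, 6.88% were called higher and 2.73% lower, which is also the background for the calls in each block. All 8 blocks with 5 or more tested members had a median above 0. These medians ran from 0.10 in block 8 to 0.27 in block 9.

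Block 16, the telomeric cluster of the q arm (chr19:55987984-58992597), had 59 members, all tested, of which 8 rose and ZNF784 fell, with a median of 0.18 and 39 above 0. Between them lie 21 tested protein-coding genes of other kinds, whose median was 0.20 with 1 called higher. Block 15 (chr19:52074536-54083523) had 38 tested members, of which 5 rose and 31 lay above 0, with a median of 0.25. It runs from ZNF610, the highest, to ZNF888 at -0.19 ± 0.15. Block 9 (chr19:36673178-38307940) had 26 tested members and the highest median of the large blocks, 0.27, yet only ZNF585A was called. Its extremes were ZNF540 at 1.22 ± 0.55, under 1 CPM and not called, and ZNF569 at -0.18 ± 0.12.

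Block 12 (chr19:44029649-45579736) had 24 tested members with a median of 0.20. ZNF221 (0.64 ± 0.21) and ZNF296 (0.63 ± 0.22) rose there and ZNF575 fell, and both rises ended under DESeq2, on the FPKM (0.48 and 0.37) and with 2 of the 4 libraries left out in turn. Block 5 (chr19:19779605-24312770), next to the centromere, had 37 members, of which 24 were tested and 13 had too few reads. Its tested members had a median of 0.19, from ZNF730 at -0.36 ± 0.44 to ZNF90. Block 3 (chr19:11594242-12750912) had 21 tested members and 3 rises, with a median of 0.14, from ZNF823 at -0.41 ± 0.13 to ZNF69. Block 2 (chr19:7069714-9903856) had 14 tested members and a median of 0.14, from ZNF414 to ZNF560 (0.76 ± 0.18; 0.42 and not called on the FPKM), its only rise. Block 8 (chr19:35168544-35455133) had 5 members, from ZNF30 at -0.12 ± 0.18, above 0 without CBL0137 replicate 1 or DMSO replicate 1 (0.019 and 0.025), to ZNF302. ZNF302 had 42.2 and 41.9 CPM in CBL0137 against 31.2 and 29.9 CPM in DMSO (0.46 ± 0.07) and stayed inside the fold limit.

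**Figure D4:**
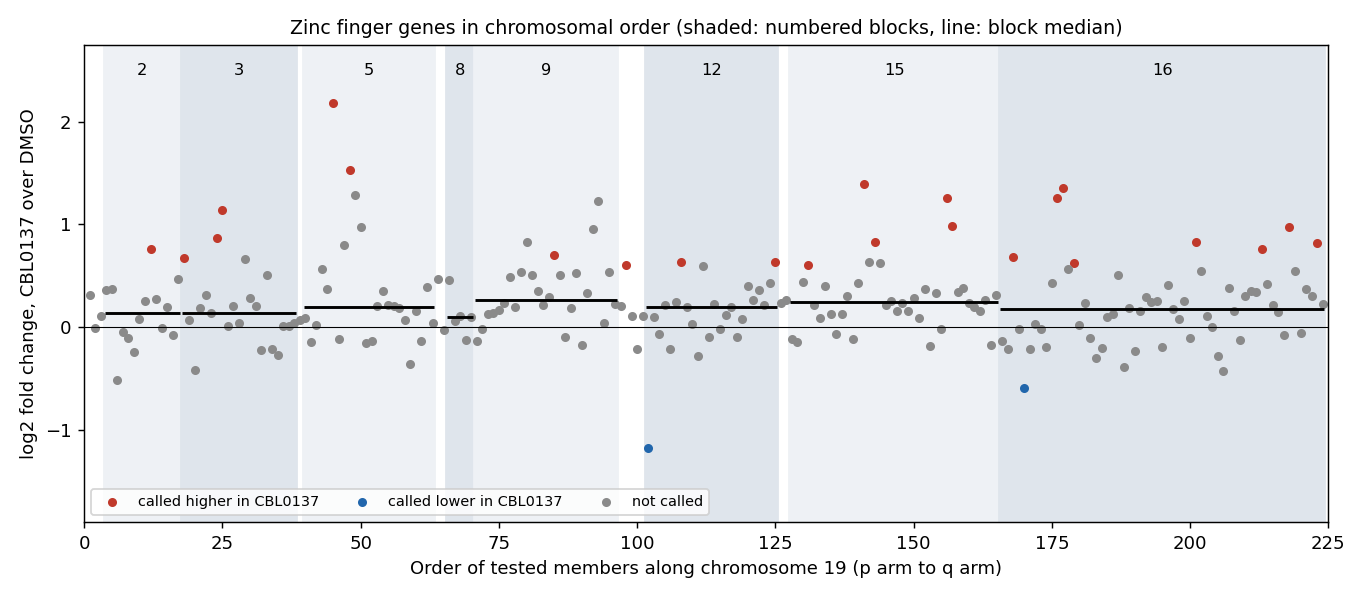
Log2 fold change (CBL0137 over DMSO) of the 224 tested members in their order along chromosome 19, with called members in colour, the 8 blocks of 5 or more tested members shaded and numbered, and a line at each block's median. Called members are scattered over the blocks, and every drawn block median lies between 0.10 and 0.27.

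Among 208 neighbouring pairs of tested members within a block, 114 had both values above 0, 15 both below and 79 were of opposite sign. With 74.1% of tested members above 0 and 10.3% called higher, pairs of like direction also arise among unrelated genes. Whether neighbours changed together was not tested. In 3 pairs both genes were called higher: ZNF439 with ZNF69, ZNF415 with ZNF347, and ZNF583 with ZNF667. ZNF415 (chr19:53611132-53636330) and ZNF347 (chr19:53627325-53662328) lie on the same strand with spans that overlap, though their exons do not.

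Several members with a described role stayed inside the fold limit. ZNF274, which binds the ends of other zinc finger genes and helps place H3K9 methylation there, had 29.8 and 31.2 CPM in CBL0137 against 24.9 and 27.7 CPM in DMSO (0.22 ± 0.08, edgeR adjusted p = 0.0337). ZNF473, a component of the machinery that forms histone mRNA ends, had 19.9 and 19.5 CPM in CBL0137 against 16.4 and 16.3 CPM in DMSO (0.27 ± 0.09, edgeR adjusted p = 0.026). ZNF331, an imprinted gene, had 45.6 and 46.0 CPM in CBL0137 against 36.9 and 37 CPM in DMSO (0.31 ± 0.06, edgeR adjusted p = 3.7e-04). In each of these genes both CBL0137 libraries lay above both DMSO libraries, by a small margin. ZNF461 measured 0.49 ± 0.18 (edgeR adjusted p = 0.0344) and was called higher without DMSO replicate 2 (0.59).

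With all 4 libraries, the listed repressors of transposable elements were not called. ZNF91, which silences SVA elements, had 5.14 and 4.79 CPM in CBL0137 against 5.30 and 5.64 CPM in DMSO (-0.14 ± 0.17). ZNF93, which targets LINE-1 elements, had 9.57 and 6.30 CPM in CBL0137 against 6.17 and 6.04 CPM in DMSO (0.37 ± 0.17, edgeR adjusted p = 0.0895). Its value rested on the CBL0137 libraries: it was called higher without CBL0137 replicate 2 (0.65) and stood at 0.043 without CBL0137 replicate 1. ZNF587 and ZNF417, paralogs that repress HERV-K, measured 0.15 ± 0.07 and -0.13 ± 0.11, and they share 24.6% and 37.9% of their windows with other genes. ZNF808, which is needed for pancreas development, measured 0.21 ± 0.12.

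ZNF653, a nuclear corepressor, rose (7.14 and 7.64 CPM in CBL0137 against 4.51 and 4.75 CPM in DMSO, 0.68 ± 0.16, edgeR adjusted p = 0.00131), but was not called on the FPKM (0.29). Its exons overlap those of other genes of the same strand over 14.6% of their bases. ZNF350, a partner of BRCA1, measured 0.21 ± 0.15, ZNF224, a partner of WT1, 0.23 ± 0.12, ZNF675, an inhibitor of TRAF6 signalling, 0.39 ± 0.26, and ZNF420, a regulator of p53, 0.29 ± 0.16. Of the other members on the list of described roles, ZNF43 (0.06), ZNF254 (0.04), ZNF382 (0.24) and ZNF568 (0.21) lay above 0, each with an alternative under which the sign turned; ZNF568 was called higher without DMSO replicate 1 (0.65) and lay at -0.13 without DMSO replicate 2. ZNF85 (0.97 ± 0.57, under 1 CPM), ZNF536 (0.47 ± 0.26) and ZNF175 (-0.12 ± 0.12, with a sign that turned on the FPKM and without DMSO replicate 2) were not called.

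Levels between genes can be compared per length only, on the authors' FPKM. The 5 highest members by mean FPKM over the libraries were ZNF146 at 30.8, ZNF428 at 22.4, ZNF580 at 15.2, ZNF358 at 14.04 and ZNF787 at 13.7 FPKM. None of the 5 carries a KRAB motif, and all have 10 fingers or fewer. None was called: ZNF146, a protein made almost wholly of fingers, had 163 and 151 CPM in CBL0137 against 161 and 157 CPM in DMSO, which overlap. The median member stood at 1.86 FPKM among those tested, against 4.21 FPKM over all tested genes.

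Among the 22 members with too few reads, 9 had 0 reads in every library and 13 lie in block 5. A count of 0 in a library allows up to 3 reads there. ZNF625 had 4 and 1 reads in CBL0137 against 3 and 7 in DMSO, ZNF57 had 7 and 1 in CBL0137 against 3 and 3 in DMSO, and ZNF681 had 3 and 6 in CBL0137 against 1 and 4 in DMSO. The germ-cell gene ZNF541 had 0 and 0 reads in CBL0137 against 0 and 2 in DMSO, and ZNF208, with 36 fingers the longest array, had 0 and 2 in CBL0137 against 0 and 1 in DMSO. ZNF625, with 77.7% of windows shared, was listed at a mean of 1.43 FPKM, and ZNF177, with 95.4% shared, at 0.877 FPKM beside 0 reads, so the FPKM and the counts are not the same reads divided by length.

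By protein features, counted in the coding sequence of the annotation, a KRAB A-box motif was found in 170 members, and 205 with a broader search chosen after the first had missed known KRAB genes. Of the 186 tested members found by the broader search, 19 rose (10.2%) and 143 (76.9%) lay above 0, with a median of 0.21. By edgeR 0 of them fell, as by DESeq2 and limma-voom, with 5 lower at an unadjusted p under 0.05. Of the 38 without the broader motif, 4 rose, 2 fell and 23 (60.5%) lay above 0, with a median of 0.10. By the first search the sets lay closer together in share above 0 and in median. Of 155 tested members with that motif, 117 (75.5%) lay above 0, with a median of 0.21 and 15 rises (9.68%). Of 69 without it, 49 (71.0%) lay above 0, with a median of 0.17 and 8 rises (11.6%). The number of fingers ran from 1 to 36 with a median of 12. Members with under 10 fingers had a median log2 fold change of 0.15, those with 10 to 14 fingers 0.20 and those with 15 or more 0.21. These differences were not tested. Members that share under 1% of their windows with other genes had a median of 0.18 and 9 rises among 86, and those sharing 10% or more had 0.21 and 4 rises among 55.

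Promoters are shown for the neighbours ZNF583 and ZNF667, for ZNF154 and for ZNF575, the strongest fall, because DNA methylation at such promoters is known to silence members in tumours and CG pairs are where it falls. The sequences are RefSeq promoters of GRCh38.p14, 250 bases before to 50 bases after the start, with each CG in capitals. DNA methylation was not measured.
ZNF583 promoter, chr19:56403764-56404063, plus strand: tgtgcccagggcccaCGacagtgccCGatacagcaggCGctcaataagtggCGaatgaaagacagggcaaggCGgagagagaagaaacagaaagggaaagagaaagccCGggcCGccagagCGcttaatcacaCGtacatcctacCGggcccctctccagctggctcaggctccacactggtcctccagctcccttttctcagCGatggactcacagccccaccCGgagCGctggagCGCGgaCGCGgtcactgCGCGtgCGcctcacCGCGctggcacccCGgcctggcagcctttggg
ZNF667 promoter, chr19:56477296-56477595, minus strand: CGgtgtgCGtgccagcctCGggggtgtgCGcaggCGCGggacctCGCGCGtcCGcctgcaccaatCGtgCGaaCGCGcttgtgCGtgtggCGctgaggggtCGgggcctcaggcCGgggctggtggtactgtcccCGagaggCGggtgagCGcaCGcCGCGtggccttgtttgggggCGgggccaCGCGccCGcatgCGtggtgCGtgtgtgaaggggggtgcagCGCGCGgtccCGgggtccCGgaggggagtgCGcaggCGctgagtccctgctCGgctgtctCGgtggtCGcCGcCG
ZNF154 promoter, chr19:57709155-57709454, minus strand: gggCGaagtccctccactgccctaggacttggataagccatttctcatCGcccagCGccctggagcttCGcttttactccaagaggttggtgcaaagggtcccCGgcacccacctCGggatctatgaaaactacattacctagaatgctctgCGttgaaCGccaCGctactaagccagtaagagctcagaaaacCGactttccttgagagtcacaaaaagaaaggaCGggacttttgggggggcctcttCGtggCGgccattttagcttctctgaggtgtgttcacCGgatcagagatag
ZNF575 promoter, chr19:43532938-43533237, plus strand: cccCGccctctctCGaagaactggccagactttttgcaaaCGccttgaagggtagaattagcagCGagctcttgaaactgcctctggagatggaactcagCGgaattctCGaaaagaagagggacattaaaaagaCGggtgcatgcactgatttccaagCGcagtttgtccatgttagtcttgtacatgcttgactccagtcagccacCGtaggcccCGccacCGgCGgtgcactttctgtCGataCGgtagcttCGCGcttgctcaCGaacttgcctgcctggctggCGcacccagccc

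The 300 bases held 23 CG in ZNF583, 42 in ZNF667, 14 in ZNF154 and 18 in ZNF575, so genes that rose to a like degree held very different numbers. Promoters were matched by symbol for 216 of 246 members. The median was 19 CG in the 20 matched members called higher, 21 in 178 tested and not called, 13.5 in 16 with too few reads, and 14 over all 35116 promoters. The letters GGGCGG, on either strand, were found in 65.0% of members called higher, 67.6% of all matched members and 45.0% of all promoters. A match describes the letters and does not show that a factor binds.

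Genes listed for KRAB repression and H3K9 methylation were called about as often as other genes of like abundance. The list is broad and also holds CTCF, RIF1, ZNF318, TRIM24, TRIM33, CHAF1A and CHAF1B. Of 30 partner and H3K9 methylation genes, all tested, 0 rose and 1 fell by edgeR, DESeq2 and limma-voom alike, beside backgrounds of 6.88% and 2.73% by edgeR. By edgeR 6 were higher and 10 lower at an unadjusted p under 0.05, and 5 were higher and 10 lower after adjustment without the fold limit, beside 17.5% and 19% of all genes. Most of the 30 had a mean of 20 CPM or more. In that class edgeR called 1.70% of all genes higher and 2.32% lower. Without the fold limit the shares of that class were 18.8% higher and 32.2% lower, near the 5 and 10 of 30 seen here. SUV39H1, an H3K9 methyltransferase of constitutive heterochromatin, was the one that fell, at 17.5 ± 1.09 CPM in CBL0137 and 26.7 ± 0.745 CPM in DMSO (mean ± SD; -0.61 ± 0.09, edgeR adjusted p = 3.7e-06). Its call ended under upper-quartile factors (-0.56), library size alone (-0.55), the FPKM (-0.47) and without CBL0137 replicate 1 (-0.55). TRIM28, the corepressor bound by KRAB domains, stood at 477 ± 7.94 CPM in CBL0137 and 590 ± 20.2 CPM in DMSO (-0.30 ± 0.03, edgeR adjusted p = 9.1e-08), inside the fold limit. SETDB1, the methyltransferase it recruits, measured -0.20 ± 0.06 (0.016 on the FPKM) and the HP1 genes CBX1, CBX3 and CBX5 measured -0.28 ± 0.04, -0.19 ± 0.04 and -0.04 ± 0.03, the last with a sign that turned under both upper-quartile factors and plain library size. The HUSH complex, which spreads H3K9 methylation over repeats, lay above 0 in MPHOSPH8 (0.24 ± 0.05), PPHLN1 (0.18 ± 0.05) and its partner MORC2 (0.36 ± 0.05), while TASOR measured 0.07 ± 0.05. All were inside the fold limit. CBX1, MPHOSPH8, PPHLN1, MORC2 and TASOR were named after their values were seen.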

How the data were processed

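Per the submitters' processing notes, Trim Galore, HISAT2 and HTSeq 0.11.1 were used, with hg19 among the builds. The counts are the authors' deposited whole reads per gene; the FPKM were also deposited by the authors, and no source used here names the tool behind them. Summary rows without a gene, left out, held 23.7% to 24.8% of a library. Counts over genes ran from 20483714 to 23373554, which limits precision for members of few reads. edgeR 4.0.16 (TMM factors, minimum count 10, quasi-likelihood test, Benjamini-Hochberg adjustment over 17309 genes) compared 2 CBL0137 with 2 DMSO libraries; the SE is the log2 fold change over the root of F. Alternatives used DESeq2 1.42.0 and limma 3.58.1, with FPKM as log2(FPKM + 1) where 2 libraries reached 1 FPKM. Members, positions and exon overlap came from GENCODE on GRCh37; fingers and KRAB motifs were read from its canonical coding sequences in place of RefSeq proteins. ZNF274, whose frame is broken in that build, was read in 3 frames. Members and lists were chosen with earlier results of these data known. Named genes were the largest called changes, the 5 highest by FPKM, members with a described role, block extremes, partner genes called or central, and the most read untested members. On simulated counts for this comparison (16862 genes), 75 of 98 2-fold and 63 of 97 1.6-fold changes were called, with 4 of 16667 unchanged genes.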

Additional observations from a re-analysis of the deposited data

How the results depend on the processing

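With RLE factors, no count filter, 1 CPM in 2 libraries and the replicate block, the counts of called members stayed within 1.5 times. The replicate block gave 23 higher and 2 lower; same-numbered libraries did not deviate together (r = -0.000133), so the numbers do not pair them. Upper-quartile factors gave a members' median of 0.25, 31 higher and 1 lower member and 0 partner genes, and library size alone gave 0.26, 33, 1 and 0. The median over all genes was 0.05 with upper-quartile factors and 0.06 with library size alone. DESeq2 gave 17 higher and 1 lower, and limma-voom gave 24 higher and 1 lower. The FPKM gave a median of 0.13, 1 higher, 0 lower and 0 partner genes. The adjusted p alone gave 56 higher, 10 lower and 15 partner genes, and a fold above 2 gave 7, 1 and 0. Leaving out 1 library, which leaves 1 in a condition, gave members' medians of 0.17 to 0.18. Block medians were above 0 in 8 of 8 blocks, in 9 of 9 without the count filter or with a 500 kb gap, and in 7 of 8 on the FPKM. Of 811 values for single genes, 735 kept direction and call, 50 lost the call, 3 gained it (ZNF93, ZNF461 and ZNF568, each without 1 library) and 23 turned sign.
Signs that turned were those of CBX5 (0.00399 with upper-quartile factors, 0.018 with library size alone), ZNF146 (0.029 and 0.042 there, 0.024 on the FPKM) and ZNF787 (0.031 and 0.045 there, 0.076 on the FPKM). On the FPKM, SETDB1 stood at 0.016, ZNF175 at 0.020, ZNF580 at 0.022, ZNF254 at -0.31, ZNF382 at -0.22 and ZNF43 at -0.085. Leaving out 1 library, ZNF146 ran from -0.077 to 0.032, ZNF175 from -0.33 to 0.11, ZNF254 from -0.00178 to 0.063, ZNF30 from -0.30 to 0.025, ZNF428 from -0.17 to 0.021, ZNF43 from -0.00614 to 0.12, ZNF568 from -0.13 to 0.65 and ZNF787 from -0.055 to 0.00824. Members of 20 or more, in classes by FPKM, had a median of -0.043. The cause was not tested.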
